A study of Mus musculus with 6 samples.

Results

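The 9 genes described here encode the creatine kinase and adenylate kinase systems of muscle: the creatine kinases Ckm, Ckmt2 and Ckb, the creatine transporter Slc6a8, the adenylate kinases Ak1, Ak3 and Ak4, and the AMP deaminases Ampd1 and Ampd3. They were selected by gene symbol from the 24411 genes of the count table, and 9 of 9 passed the filter on low counts. The study asked how loss of LSD1, the histone demethylase encoded by Kdm1a, alters the response of muscle to endurance training by voluntary wheel running (VWR). Poly(A) RNA of the soleus (Sol), a slow-dominant muscle of the lower leg, was sequenced from 3 WT and 3 LSD1-mKO mice after VWR, 1 library per mouse. Both groups were 8 weeks old when they entered single cages with a wheel for 38 days, and both had 3 days to adapt, 5 daily injections of tamoxifen at 75 mg/kg and 30 further days of running. The labels give C57BL/6 for all 6 mice. LSD1-mKO mice were Lsd1 flox/flox with TgACTA1-CreERT2/+, and the study's methods define WT as Lsd1-floxed animals that lack CreERT2, which the labels do not give for each mouse. The human ACTA1 promoter drives the recombinase in differentiating and differentiated muscle cells, so the other cell types of the whole Sol keep LSD1. All mice were fasted and kept from the wheel before the tissue was taken, and no sedentary mice were in the series, so that an effect of running itself could not be compared.

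Muscle contraction consumes ATP faster than mitochondria can deliver it at the myofibril, and creatine kinases buffer this demand by moving a phosphate between ATP and creatine. A mitochondrial isoform charges creatine where ATP is made, and a cytosolic isoform bound in part to the sarcomere recovers ATP where it is spent. Adenylate kinases convert a pair of ADP molecules into ATP and AMP, and AMP deaminase removes the AMP as IMP, the entry step of the purine nucleotide cycle.

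The isoforms are encoded by related sequences, which matters for reads of 75 bases. The best matching stretch of that length between the coding sequences of Ckm and Ckb is shown because it is the place where a read of one could most easily be taken for the other. It covers bases 550 to 624 of either coding sequence, and capitals mark the 7 bases at which the transcripts differ.

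Ckm coding 550 to 624: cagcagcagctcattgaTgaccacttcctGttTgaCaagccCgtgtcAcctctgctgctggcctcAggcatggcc

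Ckb coding 550 to 624: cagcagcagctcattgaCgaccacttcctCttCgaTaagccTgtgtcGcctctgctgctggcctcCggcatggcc

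The identity of this stretch was 90.7%. The longest run without a difference was 20 bases, sought over the whole of both coding sequences at any offset without gaps, and it does not lie in this stretch. The closest stretch of Ak3 and Ak4, the mitochondrial matrix adenylate kinases, was further apart, with 19 differences in capitals and an identity of 74.7%.

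Ak3 coding 258 to 332: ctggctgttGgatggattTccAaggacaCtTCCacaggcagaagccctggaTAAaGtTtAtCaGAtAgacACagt

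Ak4 coding 252 to 326: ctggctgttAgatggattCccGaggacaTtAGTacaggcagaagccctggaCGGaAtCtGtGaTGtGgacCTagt

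No whole 75-base window was therefore shared between these isoforms. Other annotated genes did share such windows with them: 9.61% of the windows of the longest Ak4 transcript matched the pseudogene Ak3l2-ps and 13.4% of those of Ckb matched Gm12892, and neither of these is a row of the count table. Within Ckm, 9% of the windows lay in the antisense transcript A930016O22Rik, which had 627 to 943 estimated counts per library, and 9.36% of the windows of Ak3 lay in the opposite-strand genes 1700018L02Rik or Cdc37l1. How the counting divided such reads is not given in the sources used here, so the counts of Ckm, Ckb, Ak3 and Ak4 carry this uncertainty, while Slc6a8, Ak1 and Ampd1 shared no window with any other gene. In Ckmt2 0.779% and in Ampd3 3.33% of the windows were shared.

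The promoters of the gene with the highest level, of its low-abundance isoform and of Ak4, which had the largest difference between genotypes, are printed so that these can be compared. RefSeq windows of 300 bases on GRCm38.p6, from 250 bases before to 50 bases after a transcript start, were at hand for 7 of the 9 genes, and Ampd1 and Slc6a8 had none. Capitals mark matches, on either strand, to the estrogen-related receptor element TNAAGGTCA, to the palindromic E-box CACGTG or to the TATA box TATAAA. No match of one overlapped a match of another in the windows printed, and the letters are found in 1.28%, 7.15% and 13.6% of all 32851 promoter windows, respectively.

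Ckm promoter, chr7:19410844-19411143, plus strand: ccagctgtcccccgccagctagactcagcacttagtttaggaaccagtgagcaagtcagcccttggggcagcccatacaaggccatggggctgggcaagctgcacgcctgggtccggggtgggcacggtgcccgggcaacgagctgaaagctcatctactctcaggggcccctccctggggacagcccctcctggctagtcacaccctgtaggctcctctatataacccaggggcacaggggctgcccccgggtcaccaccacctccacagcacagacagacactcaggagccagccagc

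Ckb promoter, chr12:111672289-111672588, minus strand: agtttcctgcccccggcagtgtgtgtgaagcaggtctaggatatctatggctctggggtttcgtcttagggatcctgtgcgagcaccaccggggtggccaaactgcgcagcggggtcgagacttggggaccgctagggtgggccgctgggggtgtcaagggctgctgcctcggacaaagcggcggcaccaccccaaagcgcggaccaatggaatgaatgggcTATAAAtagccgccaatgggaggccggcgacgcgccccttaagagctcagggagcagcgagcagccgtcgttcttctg

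Ak4 promoter, first start, chr4:101419039-101419338, plus strand: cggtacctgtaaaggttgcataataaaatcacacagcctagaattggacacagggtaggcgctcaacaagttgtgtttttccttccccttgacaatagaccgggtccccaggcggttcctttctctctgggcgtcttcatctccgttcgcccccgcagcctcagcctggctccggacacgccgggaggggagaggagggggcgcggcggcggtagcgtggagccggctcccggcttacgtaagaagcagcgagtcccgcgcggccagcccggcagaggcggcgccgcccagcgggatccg

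Ak4 promoter, last start, chr4:101419453-101419752, plus strand: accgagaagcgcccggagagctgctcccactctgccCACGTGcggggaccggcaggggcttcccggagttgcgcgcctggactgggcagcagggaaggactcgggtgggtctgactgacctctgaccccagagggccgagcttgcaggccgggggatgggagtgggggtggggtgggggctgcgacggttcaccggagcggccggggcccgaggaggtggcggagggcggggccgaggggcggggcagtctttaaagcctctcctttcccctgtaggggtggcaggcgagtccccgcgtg

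Ckb held a TATA box match and the last of the 4 Ak4 windows a palindromic E-box match, and the Ckm window held none of these letters. Only these exact letters were sought, so a TATA box spelled otherwise is not marked. The Ckm window does contain tatataa, so it cannot be said to lack a TATA box. A palindromic E-box also occurred in 1 of 3 windows of Ampd3, at chr7:110772354-110772653, and a TATA box match in 1 of 4 windows of Ak1. The estrogen-related receptor element was not found in any window of these genes, which says only that these letters are missing there. CpG content differed between windows: those of Ckm and Ckmt2 held 7 and 4 CpG dinucleotides, beside a median of 7 over all windows. Ckb held 22, Ak3 21 and the first window of Ak4 29. It also differed between windows of the same gene, with 22, 3 and 3 in Ampd3 and 6, 10, 2 and 2 in Ak1.

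The 6 libraries held 8940206 to 13798059 estimated counts. Kdm1a, which checks the labels, had 33.6 to 40.5 TMM-normalised counts per 1000000 (CPM) in WT but 14.6 to 16.6 CPM in LSD1-mKO, and its log2 fold change was -1.23 (edgeR adjusted p = 0.0160). Myh7, the slow myosin heavy chain that defines slow fibres, was at 11233 to 15151 CPM in all 6 libraries. Myh2, the type IIA myosin heavy chain, was at 14850 to 26503 CPM and above Myh7 in each library, without regard to transcript length. The Myh2 values of the genotypes overlapped. Summed markers of red blood cells, smooth muscle, Schwann, endothelial, fibroblast, adipocyte and immune cells overlapped between the genotypes, as did those of slow and fast fibres, and no marker was at 0 in every library. Fibroblast markers varied within each genotype, with a summed 1286, 3320 and 4234 CPM in WT (replicates 1, 2 and 3, the order used throughout) against 2713, 1287 and 1423 CPM in LSD1-mKO. The only markers with an unadjusted edgeR p under 0.05 were Actn3 and Hba-a1, and neither passed the adjusted threshold. Actn3, a fast fibre marker, had 91.9, 63.6 and 198 CPM in WT against 497, 165 and 341 CPM in LSD1-mKO (edgeR unadjusted p = 0.0128). Hba-a1, a red blood cell marker, had 13.5, 5.76 and 0 CPM in WT against 2.59, 78.0 and 202 CPM in LSD1-mKO (edgeR unadjusted p = 0.0189). The groups of both genes overlapped.

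The steady-state levels of the 9 genes spanned more than 3 orders of magnitude. In transcripts per 1000000 (TPM), which scale counts by transcript length and allow a comparison between genes, the mean over 6 mice was 7799 for Ckm, 3620 for Ckmt2, 1042 for Ak1, 266 for Ampd1, 102 for Slc6a8, 71.7 for Ak3, 40.0 for Ampd3, 21.2 for Ckb and 3.20 for Ak4. Ckm ranked between place 11 and 13 among all genes in every library, and Ak4 between 9326 and 11670. Slc6a8 and Ak3 were the only neighbours in this order whose ranges over the mice touched, with 80.6 to 117 TPM for Slc6a8 and 61.6 to 81.5 TPM for Ak3. The order was the same with the median in place of the longest transcript length, although the values moved. Ckm has coding transcripts of 2742 and 1235 bases, and its TPM would be higher if the short form predominates.

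**Figure D1:**
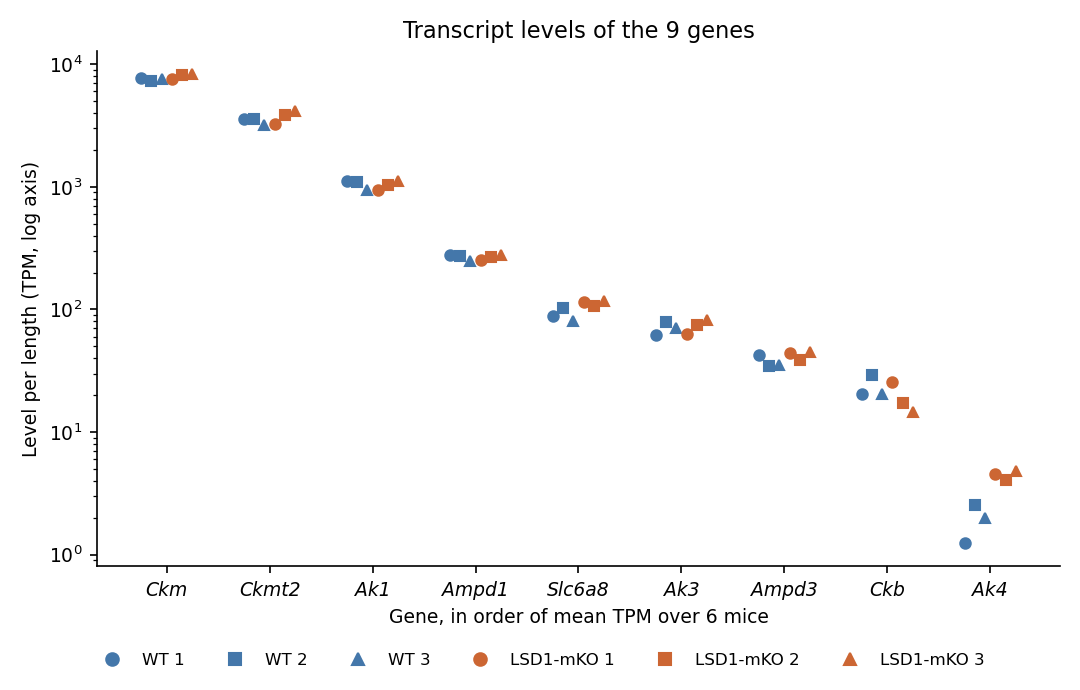
Level per length (TPM, log axis) of each of the 9 genes in every mouse, blue for WT and orange for LSD1-mKO, with the symbol giving the replicate. The genes are ordered by their mean over 6 mice, from 7799 TPM for Ckm to 3.20 TPM for Ak4, and neighbouring genes are separated except for Slc6a8 and Ak3.

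None of the 9 genes passed the edgeR test at an adjusted p of 0.05, beside 2 of 12828 genes tested (0.0156%). Ak4 was the member with the largest difference, 2.34-fold higher in LSD1-mKO, and it was called by DESeq2, which called 0.257% of the genes it tested as higher in LSD1-mKO. Slc6a8 had a smaller difference in the same direction and was called by neither. These 2 genes were also the only members with an unadjusted edgeR p under 0.05, both higher in LSD1-mKO, beside 3.52% of all genes tested, and the only members whose 3 LSD1-mKO values all lay above the 3 WT values, beside 6.63% of all genes. The other 7 genes had estimates between -0.26 and 0.19 on the log2 scale, with groups that overlapped. Across the 9 genes the median log2 fold change was 0.08, with 6 estimates above and 3 below 0, beside a median of -0.02 over all genes tested.

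**Figure D2:**
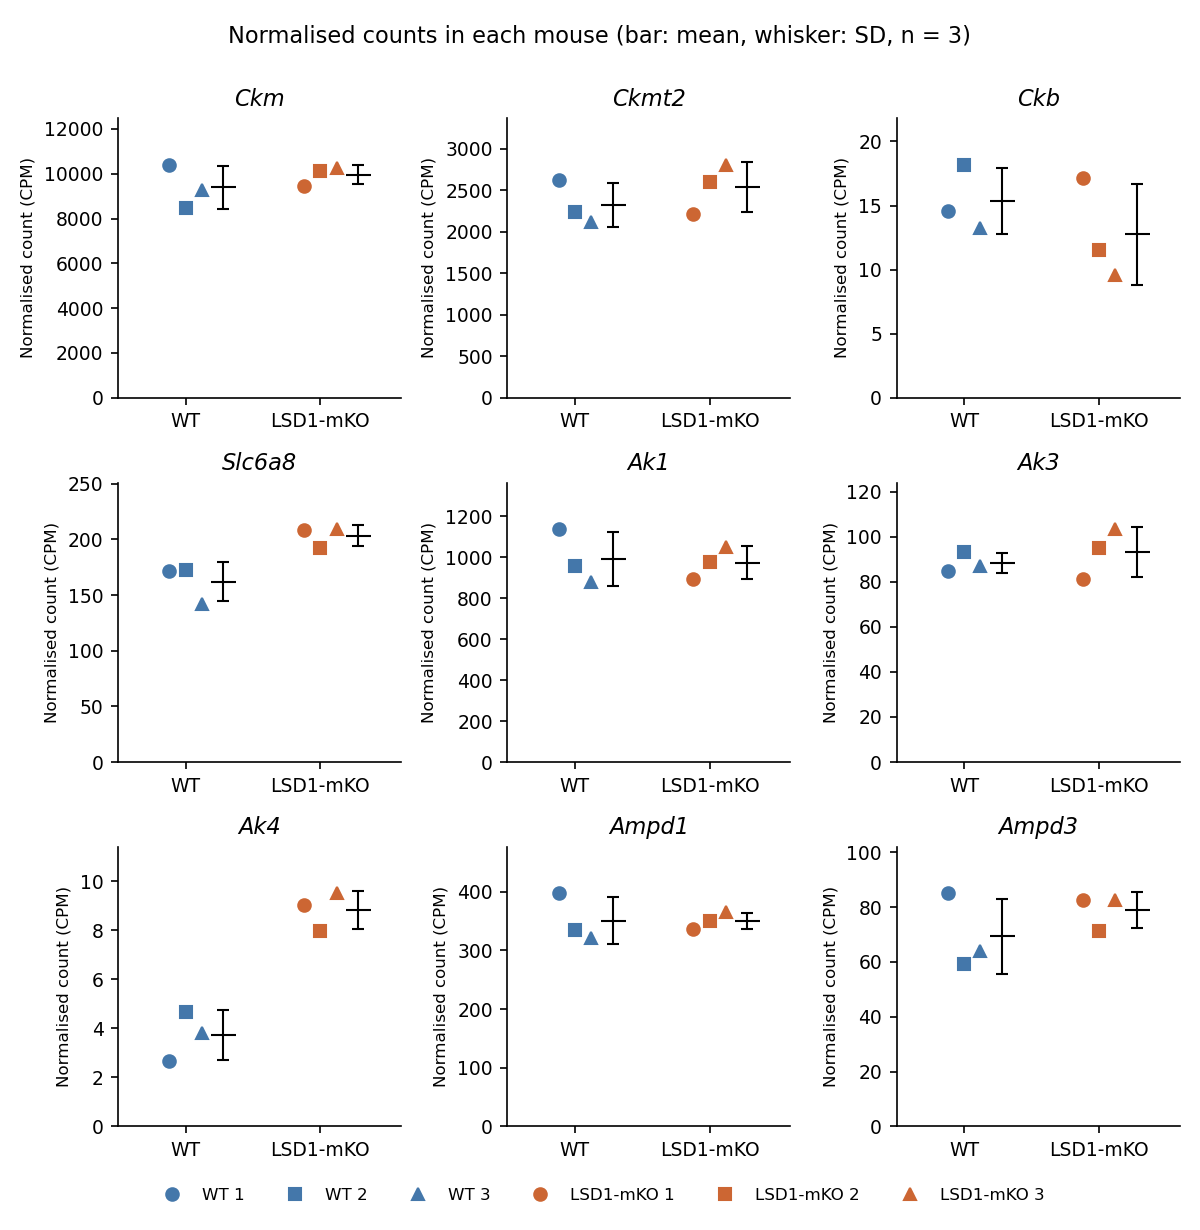
TMM-normalised counts per 1000000 (CPM) in each mouse, with a panel per gene and axes starting at 0, blue for WT and orange for LSD1-mKO. The bar and whisker give the mean and SD of 3 mice; the 3 LSD1-mKO values of Slc6a8 and Ak4 lie above the 3 WT values, and the groups overlap in the other 7 panels.

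Ckm (chromosome 7, 19404776 to 19422841, GRCm38 as for all genes here) encodes the cytosolic creatine kinase of muscle. WT mice had 10406, 8483 and 9294 CPM of Ckm, against 9465, 10127 and 10277 CPM in the LSD1-mKO mice. The highest and the lowest mouse were both WT, and the LSD1-mKO values lay between them. The log2 fold change of LSD1-mKO over WT was 0.08 ± 0.15 (SE), with a 95% interval from -0.26 to 0.43 (edgeR adjusted p = 0.933). This gene alone supplied 0.909% to 1.01% of all counts of a library, and the interval corresponds to a change between 0.833-fold and 1.35-fold. In whole muscle, fewer cells of a type and less RNA per cell cannot be told apart, and this holds for each gene described here.

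Ckmt2, the creatine kinase of the mitochondrial intermembrane space in striated muscle (chromosome 13, 91853387 to 91876885), had 2620, 2235 and 2117 CPM in the WT mice and 2217, 2602 and 2809 CPM in the LSD1-mKO mice. LSD1-mKO replicate 3 was highest and WT replicate 3 lowest, but LSD1-mKO replicate 1 lay within the WT range. Its log2 fold change was 0.13 ± 0.14 (SE; interval -0.19 to 0.45; edgeR adjusted p = 0.884). Ckb, the creatine kinase typical of brain and smooth muscle (chromosome 12, 111669361 to 111672338), was scarce, with 14.6, 18.2 and 13.2 CPM in WT and 17.2, 11.5 and 9.59 CPM in LSD1-mKO. LSD1-mKO replicates 2 and 3 were below every WT mouse, whereas LSD1-mKO replicate 1 was second highest of all. Its log2 fold change of -0.26 ± 0.22 (SE; interval -0.77 to 0.25) did not pass the test (edgeR adjusted p = 0.858). With 1 mouse left out the estimate ran from -0.53 without LSD1-mKO replicate 1 (edgeR unadjusted p = 0.0207, adjusted p = 0.645) to -0.10 without LSD1-mKO replicate 3 (unadjusted p = 0.667), and it was -0.12 without WT replicate 2. Smooth muscle markers, which belong to a cell type that uses Ckb, summed to 343 to 412 CPM in WT and 331 to 391 CPM in LSD1-mKO, and their part in the Ckb values was not tested.

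The shares of the creatine kinases overlapped between the genotypes. Ckm made up 68.5% ± 1.61 (SD, n = 3) of the summed TPM of the 3 genes in the WT mice, against 67.9% ± 1.64 in the LSD1-mKO mice (SD, n = 3; exact permutation p = 0.7, two-sided). Ckmt2 made up nearly all of the rest, and Ckb 0.211% ± 0.0497 in WT against 0.165% ± 0.0627 in LSD1-mKO (SD, n = 3; exact permutation p = 0.4). The log2 ratio of Ckmt2 to Ckm within a mouse, which does not depend on library scaling, was -1.13 ± 0.11 (SD) in WT and -1.09 ± 0.11 in LSD1-mKO, a difference of 0.04. With 3 mice against 3, the exact test cannot give a p below 0.1.

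Slc6a8 encodes the sodium- and chloride-dependent transporter that brings circulating creatine into the fibre, and lies on the X chromosome from 73673150 to 73682502. Its level was 172, 172 and 142 CPM in the WT mice and 208, 192 and 209 CPM in the LSD1-mKO mice. Each LSD1-mKO mouse exceeded each WT mouse, and WT replicate 3 stood lowest. The log2 fold change was 0.33 ± 0.10 (SE), 1.26-fold with an interval from 1.07-fold to 1.47-fold, and the unadjusted edgeR p of 0.0112 became 0.619 after adjustment over all genes. Its exact permutation p was 0.1, the smallest that 3 mice against 3 allow. Leaving out any 1 mouse gave estimates from 0.24, without WT replicate 3, to 0.38, without WT replicate 2. DESeq2 gave 0.34 with an adjusted p of 0.495.

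Among the adenylate kinases, Ak1 is the cytosolic isoform of muscle (chromosome 2, 32621758 to 32635058). Its values were 1138, 958 and 879 CPM in WT and 894, 977 and 1051 CPM in LSD1-mKO. WT mice held both the highest and the lowest value, and the log2 fold change was -0.03 ± 0.13 (SE; interval -0.31 to 0.26; edgeR adjusted p = 0.976). Ak3 is the GTP-using isoform of the mitochondrial matrix (chromosome 19, 29020833 to 29047961), with 84.7, 93.2 and 87.2 CPM in WT and 81.4, 94.8 and 103 CPM in LSD1-mKO. LSD1-mKO mice held both extremes, and its log2 fold change was 0.08 ± 0.10 (SE; interval -0.16 to 0.31; edgeR adjusted p = 0.909).

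Ak4, a matrix protein related to Ak3 and known as a gene that responds to low oxygen, lies on chromosome 4 from 101419277 to 101466995. The WT libraries held 22, 52 and 43 estimated counts of Ak4, the LSD1-mKO libraries 122, 110 and 102. The 95% exact Poisson intervals, which cover counting error only, were widest in relative terms for WT replicate 1, from 13.8 to 33.3 counts, and reached from 101 to 146 counts for LSD1-mKO replicate 1. After normalisation this became 2.65, 4.68 and 3.82 CPM in WT and 9.03, 7.96 and 9.50 CPM in LSD1-mKO. The lowest LSD1-mKO mouse was well above the highest WT mouse, and WT replicate 1 was lowest of all. The log2 fold change was 1.23 ± 0.22 (SE), 2.34-fold with an interval from 1.66-fold to 3.30-fold. The unadjusted edgeR p was 4.26e-04 and the adjusted p 0.269. DESeq2, on the same genes, gave a log2 fold change of 1.24 and an adjusted p of 0.00582, so that the call differed between the tests where the estimate hardly did. Over all alternatives its adjusted p ran from 0.00582 to 0.998, while the estimate stayed between 1.05, without WT replicate 1, and 1.43, without WT replicate 2. Its exact permutation p was 0.1, the smallest possible.

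Despite this difference Ak4 remained a small part of the adenylate kinase transcripts. Its share of the summed TPM of Ak1, Ak3 and Ak4 was 0.172% ± 0.0589 in WT against 0.405% ± 0.0443 in LSD1-mKO (SD, n = 3 each; exact permutation p = 0.1), while Ak1 supplied 93.6% and 93.0%, respectively. With the median transcript length, the mean over 6 mice was 89.3% for Ak1, 10.2% for Ak3 and 0.498% for Ak4. The log2 ratio of Ak4 to Ak1 was -9.81, -8.74 and -8.91 in the WT mice, against -7.69, -8.00 and -7.85 in the LSD1-mKO mice. All LSD1-mKO ratios were above all WT ratios, by 1.30 on average, with an exact permutation p of 0.1, or 0.5 after Benjamini-Hochberg adjustment over the 5 ratios tested. The ratio of Ak3 to Ak1 differed by 0.09 (exact permutation p = 0.9).

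**Figure D3:**
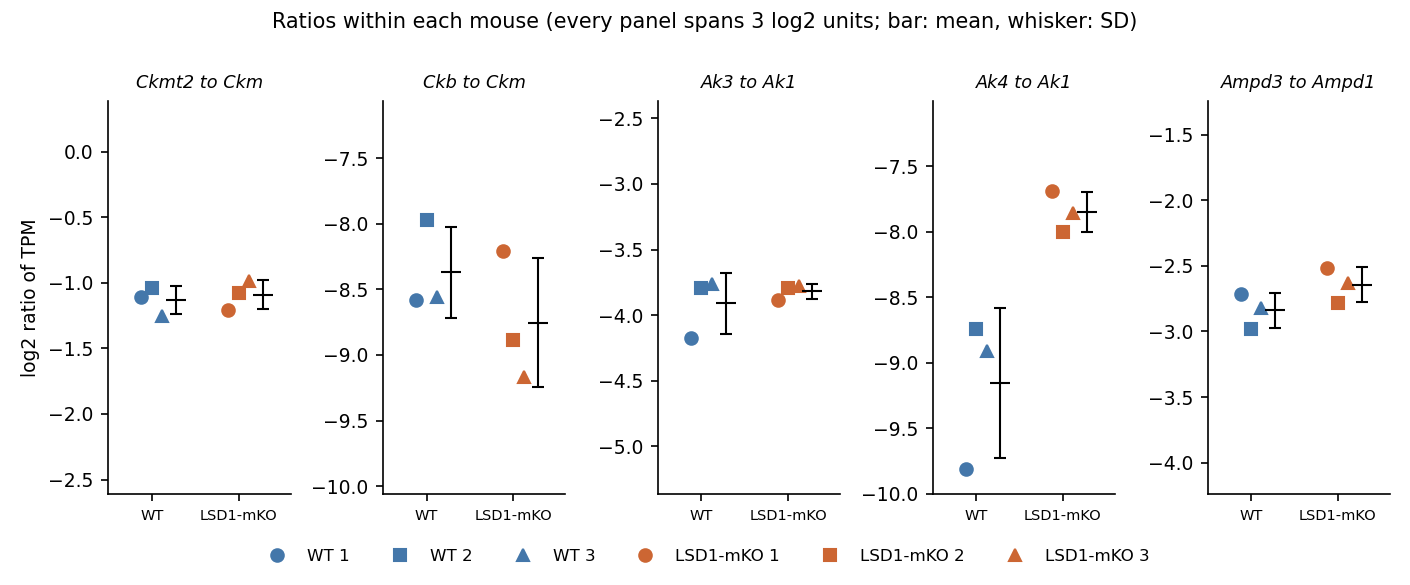
log2 ratio of TPM within each mouse for 5 pairs of genes, with every panel spanning the same 3 log2 units; the bar and whisker give the mean and SD of 3 mice, blue for WT and orange for LSD1-mKO. The groups are separate for Ak4 to Ak1, with a difference of 1.30, and overlap for the other 4 ratios.

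Ampd1, the AMP deaminase of skeletal muscle (chromosome 3, 103074014 to 103099720), showed 397, 334 and 321 CPM in WT and 337, 349.5 and 365 CPM in LSD1-mKO. The means of 351 and 350.3 CPM were nearly equal, with the LSD1-mKO mice inside the WT range. The interval of its log2 fold change ran from -0.24 to 0.24 (edgeR adjusted p = 0.999). Ampd3, the isoform best known from red blood cells (chromosome 7, 110768206 to 110812405), had 85.0, 59.4 and 63.9 CPM in WT and 82.8, 71.4 and 82.8 CPM in LSD1-mKO. WT replicate 1 was highest and the other WT mice were lowest. Its log2 fold change was 0.19 ± 0.14 (SE; interval -0.13 to 0.51; edgeR adjusted p = 0.824). With 1 mouse left out it ran from 0.09 without WT replicate 2 (edgeR unadjusted p = 0.569) to 0.36 without WT replicate 1 (unadjusted p = 0.00767, adjusted p = 0.216). Red blood cell markers summed to 201 to 535 CPM in WT and 260 to 420 CPM in LSD1-mKO, and their part in the Ampd3 values was not tested. Of the TPM of all AMP deaminases, Ampd2 included, Ampd1 supplied 86.4% ± 0.705 in WT against 85.1% ± 1.19 in LSD1-mKO (SD, n = 3 each), and the log2 ratio of Ampd3 to Ampd1 differed by 0.20 (exact permutation p = 0.2).

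The most abundant members shared their order of mice in part, across genotypes. In CPM, Ckm, Ckmt2, Ak1 and Ampd1 were each highest in the same 3 mice, WT replicate 1 and LSD1-mKO replicates 2 and 3. These were the 3 mice with the lowest summed fibroblast markers, 1286, 1287 and 1423 CPM, beside 2713 to 4234 CPM in the others. The same 3 mice were also lowest for summed immune markers (80.3 to 119 CPM, beside 164 to 265), endothelial markers (452 to 489 CPM, beside 547 to 666) and adipocyte markers (494 to 524 CPM, beside 555 to 591), so the split was not particular to fibroblasts. Other summed markers did not follow this split. WT replicate 1 was highest for smooth muscle (412 CPM) and LSD1-mKO replicate 2 for Schwann cell markers (161 CPM). Red blood cell markers were at 420 CPM in LSD1-mKO replicate 3, beside 213 CPM in WT replicate 3. In TPM, which carries no TMM scaling, Ckm and Ckmt2 were highest in the 3 mice with the lowest fibroblast markers as well. For Ak1 and Ampd1, WT replicate 2 then took the place of LSD1-mKO replicate 2. Ak1 had 1093 TPM in WT replicate 2 against 1037 TPM in LSD1-mKO replicate 2, and Ampd1 273 against 265 TPM. Summed fibroblast markers of WT replicate 2 were 3320 CPM, so for these genes the split depended on the scaling. With the logarithm of the fibroblast sum as a covariate, chosen after the data were seen, the log2 fold changes were 0.01 for Ckm, 0.0040 for Ckmt2, -0.14 for Ak1, -0.09 for Ampd1, 1.40 for Ak4 and 0.29 for Slc6a8. For the remaining members they were -0.13 for Ckb, 0.04 for Ak3 and 0.11 for Ampd3. None of the 9 genes passed the adjusted threshold in that fit.

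**Figure D4:**
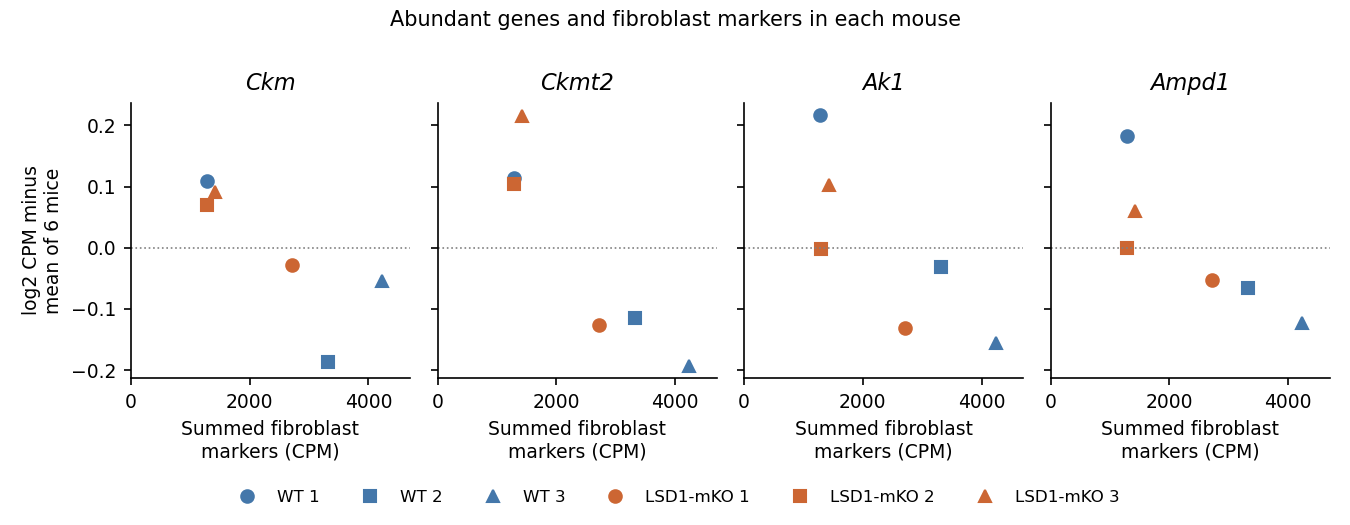
Deviation of log2 CPM from the mean of 6 mice for Ckm, Ckmt2, Ak1 and Ampd1 (vertical axes) against the summed CPM of 5 fibroblast markers (horizontal axes) in each mouse, blue for WT and orange for LSD1-mKO. In each panel the 3 mice with 1286 to 1423 CPM of fibroblast markers are the 3 highest in CPM, and they include both genotypes. In TPM this holds for Ckm and Ckmt2 only.

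The gene most like each member over the 6 mice was sought among 10202 genes with a mean of at least 5 CPM over the mice, by the root mean square difference between log2 deviations from the gene's own mean. For Ak4 this was Arntl, a transcription factor of the circadian clock, with a difference of 0.09 where Ak4 itself deviated by 0.67. The WT mice had 2.77, 4.41 and 3.38 CPM of Arntl, and the LSD1-mKO mice 9.17, 7.17 and 8.38 CPM. Its WT mean of 3.52 CPM was under that minimum and its LSD1-mKO mean of 8.24 CPM above it, so it entered the search only through its LSD1-mKO level, and genes of like WT level that did not differ were left out. Arntl was chosen for its likeness to Ak4, whose groups were separate. The separation of its own groups and its log2 fold change of 1.21 ± 0.21 (SE) follow from that choice. Slc6a8 was closest to Laptm4b, with a difference of 0.04 where Slc6a8 deviated by 0.19. Laptm4b had 14.5, 15.0 and 12.7 CPM in WT and 17.4, 16.2 and 18.3 CPM in LSD1-mKO. For the others the nearest genes were Tsr1 for Ckm, Nop14 for Ckmt2, Fam102a for Ckb, Tsc2 for Ak1, Fdxr for Ak3, Nelfb for Ampd1 and Nup210 for Ampd3. These are descriptions over 6 mice, chosen from many genes, and carry no test.

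The rest of the phosphotransfer network gave the members a frame. Of 33 other listed genes, 26 passed the filter on low counts, and 0 of 26 passed the adjusted threshold in either edgeR or DESeq2. By edgeR, 14 had estimates above and 12 below 0, with a median of 0.01. Beside 3.52% of all genes tested, 1 of 26 had an unadjusted edgeR p under 0.05 and was higher in LSD1-mKO. This was Nt5c1a, a cytosolic nucleotidase that makes adenosine from AMP, with 2.17, 1.62 and 1.33 CPM in WT and 4.51, 1.66 and 4.47 CPM in LSD1-mKO. LSD1-mKO replicate 2 lay within the WT range, and the log2 fold change of 1.06 ± 0.42 (SE) had an edgeR adjusted p of 0.729. All LSD1-mKO values lay above all WT values for Nme6 and below them for Nme4, beside 6.63% and 6.10% of all genes.

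Creatine synthesis had 2 genes in the test, Gatm and Gamt, and neither passed it. Gamt, which methylates guanidinoacetate to creatine, was the more abundant, with 6.15, 10.8 and 12.4 CPM in WT and 8.51, 5.50 and 5.49 CPM in LSD1-mKO. Its groups overlapped, and its log2 fold change was -0.60 (interval -1.25 to 0.05; edgeR adjusted p = 0.766). Ckmt1, the ubiquitous mitochondrial creatine kinase, had no more than 2 estimated counts in any library, which is too few to compare.

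Of the other adenylate and nucleoside diphosphate kinases, 8 of 12 were tested, with 3 estimates above and 5 below 0. Nme2, which equilibrates nucleoside triphosphates, was the most abundant of them at a mean of 835 TPM, with a log2 fold change of -0.03 (interval -0.27 to 0.22). Nme7 had the largest estimate of this group, -0.28 (interval -0.90 to 0.33; edgeR adjusted p = 0.868). Of 12 genes of the purine nucleotide cycle and purine salvage, 11 were tested, with 8 estimates above and 3 below 0 and a median of 0.10. Adssl1, the muscle adenylosuccinate synthase that takes IMP back towards AMP, was the most abundant at a mean of 977 TPM. Its values were 866, 751 and 660.0 CPM in WT and 719, 908 and 919 CPM in LSD1-mKO, with a log2 fold change of 0.16 (interval -0.16 to 0.48; edgeR adjusted p = 0.860). LSD1-mKO replicates 2 and 3 were above every WT mouse, and LSD1-mKO replicate 1 was not.

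Carriers and channels that link mitochondrial ATP to creatine kinase were close to 0 throughout, with log2 fold changes between -0.02 and 0.03 for 5 of 6 listed genes. Slc25a4, the adenine nucleotide translocator of muscle, was the most abundant at a mean of 5545 TPM and had a log2 fold change of 0.01 (interval -0.35 to 0.36). Vdac1, the outer membrane channel, had the largest estimate, 0.03 (interval -0.28 to 0.34; edgeR adjusted p = 0.972).

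**Figure D5:**
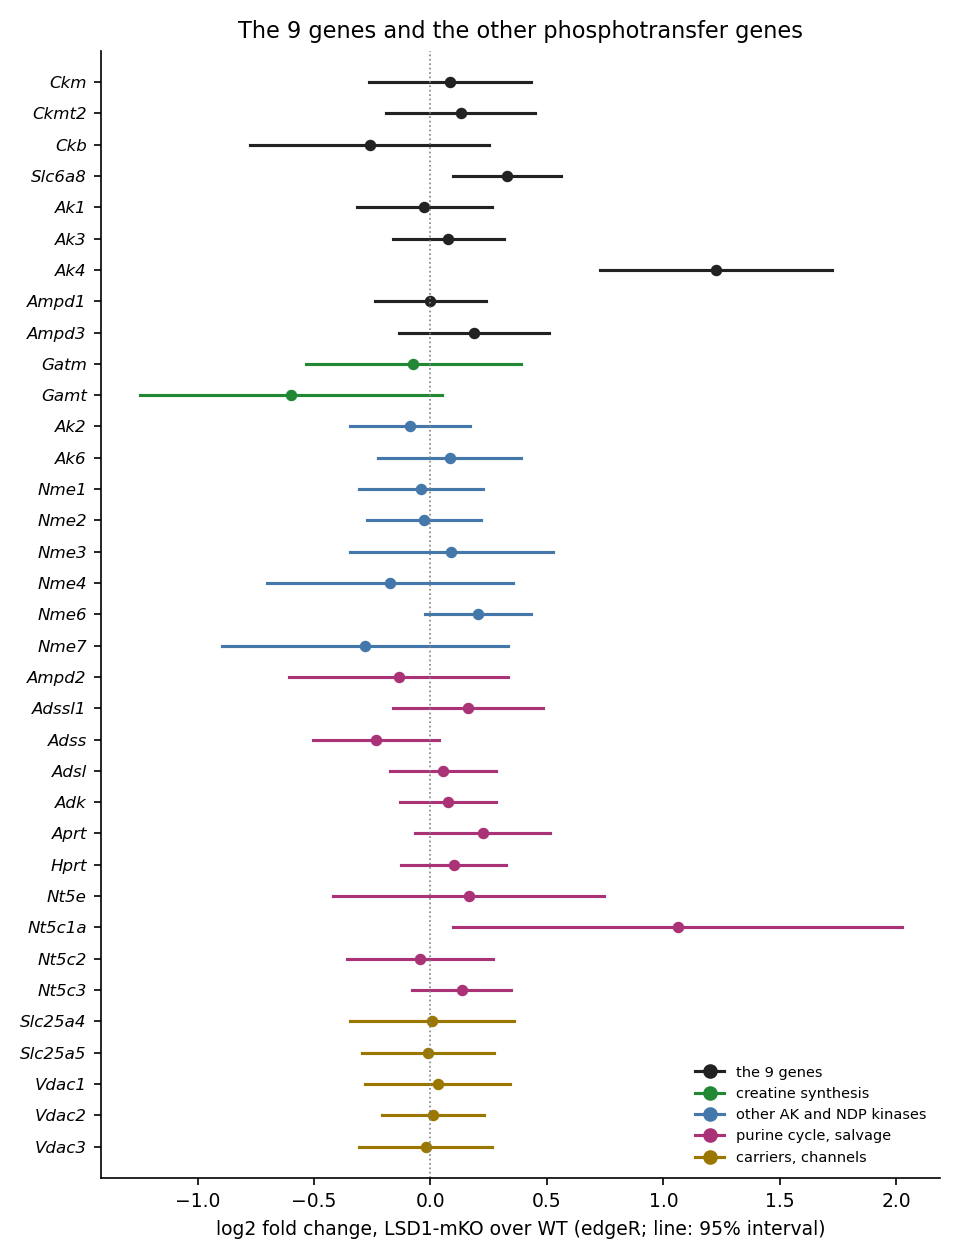
log2 fold change of LSD1-mKO over WT with its 95% interval from edgeR for the 9 genes (black) and 26 other phosphotransfer genes (coloured by group). The intervals of Ak4, Slc6a8 and Nt5c1a do not cross 0, none of the 35 genes passed the adjusted threshold, and the estimates of the 5 carriers and channels lie between -0.02 and 0.03.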

How the data were processed

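Libraries of Sol poly(A) RNA, 1 per mouse as labelled, came from 3 WT and 3 LSD1-mKO animals. Single-end reads of 75 bases were aligned by the authors with STAR (mm10), and the deposited values are estimated counts per gene without normalisation; 8.33% to 9.94% of them, depending on the library, are fractions. The counting tool and annotation are not given in the sources used here. The authors also deposited a DESeq2 comparison of the genotypes, which was not used. Totals were 8940206 to 13798059 estimated counts, and intervals on them cover counting error only.

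Estimated counts were rounded and tested with edgeR 4.0.16 (TMM, filterByExpr by genotype, quasi-likelihood) in R 4.3.3. Adjustment was by Benjamini-Hochberg across all 12828 tested genes, at a threshold of 0.05. Alternatives were DESeq2 1.42.0 (named by the study for its libraries), voom in limma 3.58.1, other scalings, testing without the low-count filter, a block for the replicate number, and leaving out each mouse. The scripts were tested on simulated data. Single values were compared by a two-sided exact permutation test over the 10 ways to divide 6 mice. TPM used the longest coding transcript of GENCODE vM21: 23353 symbols matched directly, 691 through other symbols, and 367 had no length. Motifs were searched in RefSeq promoters.

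The members, gene lists and tests were chosen with earlier results of these data known. Named are the 9 members, the most abundant and the most different gene of each group of related genes, any gene past the threshold, and the nearest gene to each member. Nt5c1a also had the largest estimate of its group. Nme4, Nme6, Actn3 and Hba-a1 were named after their values were seen. Same-numbered mice did not deviate from their group means together: the correlations were -0.352, -0.107 and -0.150. These values cannot show whether such mice shared a litter or a batch.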

Additional observations from a re-analysis of the deposited data

How the results depend on the processing

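Of 126 comparisons of the members' log2 fold changes with an alternative, 114 kept direction and call, 1 passed the threshold (Ak4 with DESeq2) and 11 changed sign, all in Ak1, Ak3 and Ampd1, whose estimates were near 0. The number of members called was 0 under every alternative but DESeq2, which gave 1. Genes called across the table numbered 2 in edgeR, 42 in DESeq2, 11 without the filter on low counts, where Ak4 had an adjusted p of 0.0611, and 1 with the replicate block. The other phosphotransfer genes had 0 calls under all alternatives. The estimate of Ampd1 changed sign with DESeq2 (0.0067), voom (0.0016), DESeq2 size factors in edgeR (0.0065), no filter (0.0138) and the replicate block (0.0043). With 1 mouse left out, log2 fold changes ran from 0.02 to 0.17 for Ckm, from 0.05 to 0.23 for Ckmt2, from -0.105 to 0.0868 for Ak1, from -0.0034 to 0.17 for Ak3 and from -0.0602 to 0.0992 for Ampd1, the log2 ratio of Ckmt2 to Ckm differed by -0.0182 to 0.10 and that of Ak3 to Ak1 by -0.0415 to 0.165, and genes called numbered 1 to 3. The cause of these changes was not tested. Same-numbered mice did not deviate together, and edgeR called no member with the replicate block or without it. With the block, Ak4 was at 1.25 (edgeR adjusted p = 0.797 in place of 0.269) and Slc6a8 at 0.33 (0.980 in place of 0.619). Depth limits Ak4 most, with 22 to 52 estimated counts in a WT library. The median of all genes moved from -0.02 to between -0.04 and -0.0036 under the alternatives.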
